A study of Hordeum vulgare with 6 samples.

Results

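The *SAUR* genes (*SMALL AUXIN UP RNA*) described here are *SAUR36*, *SAUR51*, *SAUR54* and a *SAUR*-like gene, 4 of the 26933 genes listed for barley (*Hordeum vulgare*). They are the genes that carry a *SAUR* name among those the study grouped by hormone pathway after intersecting 2 of its own results, namely binding by the MADS-box transcription factor HvMADS1 in CUT&Tag and a changed level in the same RNA-seq libraries that are analysed here. The difference between genotypes therefore chose these genes, and it is given below as a description without a test. All 4 passed the filter on low values, set at 1 FPKM or more in 3 or more of the 6 libraries, *SAUR54* only through its WT libraries. FPKM counts the fragments of a transcript per unit of its length and per unit of library size, so levels of different genes can be compared with each other.

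*SAUR* genes encode small plant proteins and are among the transcripts that accumulate fastest after auxin treatment. In Arabidopsis, several SAUR proteins inhibit protein phosphatases that would otherwise switch off the proton pumps (H+-ATPases) of the plasma membrane. Active pumps acidify the cell wall, where expansins loosen it, and the cell can extend. Auxin signalling reaches *SAUR* promoters through auxin response factors (ARF), which Aux/IAA repressors and TOPLESS corepressors hold back until auxin is perceived.

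Libraries were made from 3 *mads1* and 3 WT samples of cv. Golden Promise, all grown normally and collected at Waddington stage W7.5, a point on the scale that orders barley inflorescences by their development. *mads1* plants carry a CRISPR-Cas9 knockout of *HvMADS1*, and the labels do not say which of the knockout lines was sequenced. Each sample was a pool of several plants, so the spread between samples is that between pools. By the methods, lemmas and awns were taken from spikelets in the middle of the spike, while the labels give spikelet only. In such bulk tissue, fewer cells of a type and less RNA per cell cannot be told apart. The level of *HvMADS1* itself is not analysed here, and the genotype labels were therefore not checked against the knocked-out gene.

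Summed over all genes, a *mads1* library came to between 939663 and 966119 FPKM and a WT library to between 993575 and 994495 FPKM. The number of reads behind a library is unknown. Pearson's correlation of log2(FPKM + 1) across the 17996 genes that passed the filter was 0.982 to 0.994 between libraries of one genotype and 0.884 to 0.941 between genotypes, a description across genes, which are not independent replicates. WT replicate 1 was the highest WT library for 33.9% of all genes tested but for 74.8% of those lower in *mads1* past the threshold given below, and values of the *SAUR* genes without it are also given. *DL*, which the study located in lemma and awn, was present in every library (56.5 ± 8.25 FPKM in *mads1*, 91.1 ± 9.14 FPKM in WT). So was *SHI*, which it located in the awn (17.1 ± 2.44 FPKM in *mads1*, 60.7 ± 2.99 FPKM in WT). The floral MADS-box genes *MADS5* (9.87 ± 0.832 FPKM in *mads1*, 19.6 ± 4.12 FPKM in WT) and *MADS2* (6.92 ± 0.497 FPKM in *mads1*, 11.8 ± 1.32 FPKM in WT) were present in every library too (SD, n = 3 each). These 4 genes were also on the study's list of changed genes, and their presence is a check of the tissue only. It does not tell lemma and awn from whole spikelets.

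All 4 *SAUR* genes were lower in *mads1*, with mean levels between 3.45% and 23.4% of those in WT. For 4 of 4, the highest *mads1* value was under the lowest WT value. Over all genes tested, 26.5% had all *mads1* values below all WT values and 55.9% had groups that did not overlap in either direction. A further threshold, adjusted p under 0.05 with a 1.5-fold change or more, was passed by 14.5% of all genes tested in the direction of lower in *mads1*. It was passed by 4 of 4 *SAUR* genes, but since this contrast chose them, nothing is read from that count. Differences below are given on the log2(FPKM + 1) scale, as *mads1* minus WT with the standard error of the fit over all genes, a scale on which changes of low-level genes look too small. The median of this difference was -2.53 for the 4 genes and 0.05 over all genes tested.

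The *SAUR*-like gene, identifier HORVU.MOREX.r3.5HG0430490 on chromosome 5H, had the largest difference of the 4. Its level was 0.40, 1.13 and 0.43 FPKM in *mads1* replicates 1, 2 and 3, against 26.18, 12.07 and 18.54 FPKM in WT replicates 1, 2 and 3. The lowest WT library was thus 10.7 times as high as the highest *mads1* library. Means were 0.653 ± 0.413 FPKM in *mads1* and 18.9 ± 7.06 FPKM in WT (SD, n = 3 each), which put *mads1* at 3.45% of WT. The difference on the log2 scale was -3.56 (SE 0.28). When the 17996 genes tested were ordered from the lowest difference upward, the gene stood in place 69.

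*SAUR36* (HORVU.MOREX.r3.7HG0687860, chromosome 7H) was the most abundant of the 4 in every library. It stood at 5.20, 7.89 and 3.84 FPKM in *mads1*, against 77.59, 43.04 and 47.44 FPKM in WT. The groups were 5.46-fold apart at their nearest values. *mads1* averaged 5.64 ± 2.06 FPKM and WT 56.0 ± 18.8 FPKM (SD, n = 3 each), so the mean in *mads1* was 10.1% of that in WT. The log2 difference was -3.10 (SE 0.26), in place 116 of the 17996 genes.

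*SAUR54* (HORVU.MOREX.r3.5HG0502520, chromosome 5H) was a gene of low level in both genotypes. *mads1* libraries held 0.41, 0.58 and 0.22 FPKM and WT libraries 5.36, 4.77 and 3.29 FPKM. Again no *mads1* library came near a WT library, with a ratio of 5.67 between the nearest values. The mean was 0.403 ± 0.180 FPKM in *mads1*, or 9.02% of the 4.47 ± 1.07 FPKM in WT (SD, n = 3 each). On the log2 scale the difference was -1.95 (SE 0.19), in place 441. In linear terms *SAUR54* and *SAUR36* stood at a like share of WT, and their log2 differences were unequal because the added 1 weighs more on a gene of low level.

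*SAUR51* (HORVU.MOREX.r3.5HG0502460, chromosome 5H) kept the largest share of its WT level. It was measured at 1.31, 1.06 and 1.20 FPKM in *mads1* and at 7.21, 4.71 and 3.36 FPKM in WT. The highest *mads1* library and the lowest WT library were 2.56-fold apart, the narrowest gap of the 4 genes. Means were 1.19 ± 0.125 FPKM in *mads1* and 5.09 ± 1.95 FPKM in WT (SD, n = 3 each), which is 23.4% of WT. The log2 difference was -1.43 (SE 0.22), in place 887.

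**Figure D1:**
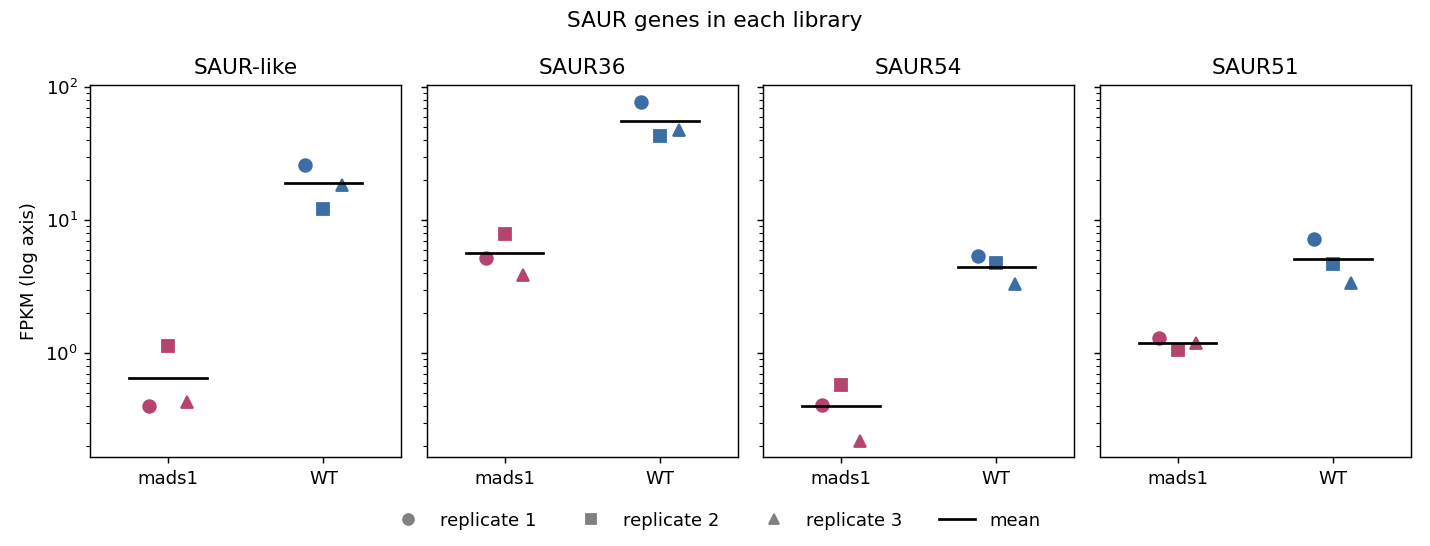
Level of each *SAUR* gene in FPKM (log axis) in the 3 *mads1* and 3 WT libraries, with 1 symbol per replicate and a line at the mean. Every *mads1* point lies below every WT point, from a 10.7-fold gap for the *SAUR*-like gene to a 2.56-fold gap for *SAUR51*.

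Ordered by level, *SAUR36* came first in *mads1*, followed by *SAUR51* and the *SAUR*-like gene, with *SAUR54* last. The range of the *SAUR*-like gene in *mads1* (0.40 to 1.13 FPKM) overlapped those of *SAUR51* (1.06 to 1.31 FPKM) and *SAUR54* (0.22 to 0.58 FPKM), so these neighbours in the order did not differ beyond their spread. In WT, *SAUR36* was again first, but the *SAUR*-like gene was second, and *SAUR51* and *SAUR54* came last with ranges that overlapped. *SAUR51* was above *SAUR54* in WT replicates 1 and 3, and the 2 genes were at 4.71 and 4.77 FPKM in WT replicate 2. Among all listed genes, the mean level of *SAUR36* was at percentile 50.05 in *mads1* and percentile 87.2 in WT. The *SAUR*-like gene was at percentile 32.1 in *mads1* and 67.2 in WT, *SAUR51* at percentile 36.6 in *mads1* and 47.8 in WT, and *SAUR54* at percentile 28.9 in *mads1* and 46.6 in WT.

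Summed over the 4 genes, *mads1* libraries held 7.32, 10.66 and 5.69 FPKM, against 116.34, 64.59 and 72.63 FPKM in WT. The sum averaged 7.89 ± 2.53 FPKM in *mads1* and 84.5 ± 27.8 FPKM in WT (SD, n = 3 each), so *mads1* held 9.34% of the WT sum. *SAUR36* made up most of it in both genotypes, with 70.8 ± 3.27% in *mads1* and 66.2 ± 0.778% in WT. The *SAUR*-like gene gave 7.87 ± 2.58% of the sum in *mads1*, where it ranged from 5.46% to 10.6%, and 22.2 ± 3.43% in WT, where it ranged from 18.7% to 25.5%. The share of *SAUR51* lay the other way, at 16.3 ± 5.74% in *mads1* (9.94% to 21.1%) and 6.04 ± 1.34% in WT (4.63% to 7.29%). *SAUR54* gave 4.97 ± 0.959% in *mads1* and 5.51 ± 1.63% in WT, with ranges that overlapped. The composition of the summed *SAUR* level thus differed between genotypes mainly in the parts of the *SAUR*-like gene and *SAUR51*, which follows from their unequal differences above.

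**Figure D2:**
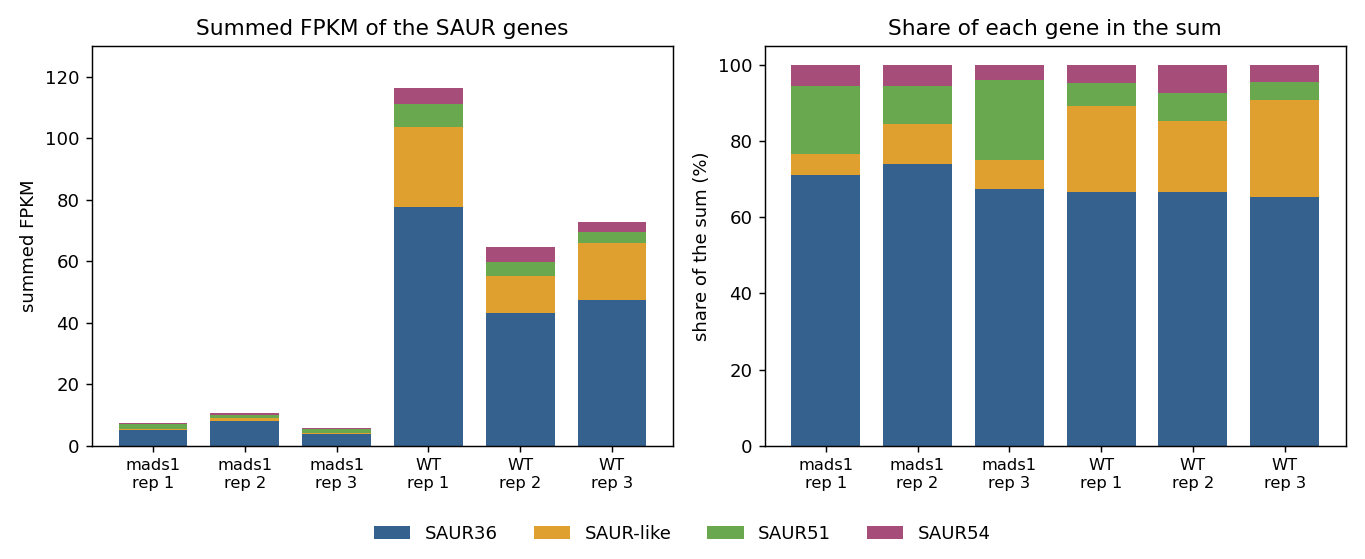
Summed FPKM of the 4 *SAUR* genes in each library (left) and the share of each gene in that sum in percent (right), with the 3 *mads1* libraries before the 3 WT libraries. The sums lie between 5.69 and 10.66 FPKM in *mads1* and between 64.59 and 116.34 FPKM in WT, and *SAUR36* is the largest part of every bar.

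Replicates varied more for *SAUR36* and the *SAUR*-like gene than for most genes of similar level. The SD of log2(FPKM + 1) within groups was 0.44 for *SAUR36*, beside a median of 0.12 over the 1862 genes with a mean within 0.25 of its own, which put it at percentile 98.8 of those genes. For the *SAUR*-like gene it was 0.45, beside a median of 0.19 over 1171 such genes (percentile 92.1). *SAUR51* (0.33, beside 0.22 over 1104 genes) and *SAUR54* (0.25, beside 0.22 over 1232 genes) were nearer to the middle, at percentile 78.4 for *SAUR51* and 57.8 for *SAUR54*.

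WT replicate 1 was the highest WT library for all 4 genes. It stood above the mean of the other WT libraries by a factor of 1.71 for the *SAUR*-like gene, 1.72 for *SAUR36*, 1.33 for *SAUR54* and 1.79 for *SAUR51*. It reached at least 1.5 times the mean of the other WT libraries for 3 of the 4 *SAUR* genes, for 23% of the genes lower in *mads1* and for 5.26% of all genes tested. Without WT replicate 1, the log2 differences were -3.30 for the *SAUR*-like gene, -2.84 for *SAUR36*, -1.83 for *SAUR54* and -1.19 for *SAUR51*, and *mads1* held 11.5% of the summed WT level. Among the *mads1* libraries, replicate 2 was the highest for 3 of the 4 genes and the lowest for *SAUR51*, while over all genes tested it was the highest *mads1* library for 29.9%. Without *mads1* replicate 2, *mads1* held 7.70% of the summed WT level. What made these libraries stand higher was not tested.

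Genes of the auxin pathway on the study's list of bound and changed genes show what lay around the *SAUR* genes. They were chosen on the same contrast, so their counts are no independent evidence of a direction. Of 9 such genes, all 9 passed the filter, 5 were lower and 3 were higher in *mads1* past the threshold, and 1 did not pass it. Over all genes tested, 14.5% were lower and 6.6% higher. The median log2 difference of the 9 was -0.87, and that of the 541 tested genes of the whole list was -1.14, with 450 lower and 64 higher. *SAUR* genes ranked 28 (*SAUR*-like), 46 (*SAUR36*), 139 (*SAUR54*) and 211 (*SAUR51*) among these 541.

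Of the repressors, *IAA12* (an Aux/IAA gene) was the nearest of the auxin genes to *SAUR36* in its difference. It was at 0.99, 1.52 and 0.19 FPKM in *mads1*, against 22.13, 10.48 and 9.58 FPKM in WT, a log2 difference of -2.96. *IAA14*, also an Aux/IAA gene, averaged 14.4 ± 1.5 FPKM in *mads1* and 35.4 ± 5.87 FPKM in WT (log2 difference -1.23). A gene annotated as dormancy/auxin associated was far more abundant than any *SAUR* gene, at 112 ± 41.5 FPKM in *mads1*, or 15.8% of the 712 ± 112 FPKM in WT (log2 difference -2.71; SD, n = 3 each).

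Of the response factors, 1 was lower, 1 higher and 1 did not pass the threshold. *ARF22* was lower, at 5.87 ± 0.430 FPKM in *mads1* and 11.6 ± 0.212 FPKM in WT (log2 difference -0.87). *ARF10* did not pass the limit on fold change, at 7.16 ± 0.285 FPKM in *mads1* and 10.7 ± 0.491 FPKM in WT (log2 difference -0.52). *ARF19* was higher, at 8.96 ± 0.330 FPKM in *mads1* and 4.72 ± 0.644 FPKM in WT (log2 difference 0.81; SD, n = 3 each). ARF proteins act as activators or repressors of auxin-responsive genes, and which of them acts on these *SAUR* genes was not tested.

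*LAX2*, of the family of auxin influx carriers, was higher (161 ± 12.5 FPKM in *mads1*, 80.6 ± 8.95 FPKM in WT, log2 difference 0.99; SD, n = 3 each). The third higher gene, annotated as TOPLESS-related 2, was at 3.83, 4.02 and 4.2 FPKM in *mads1* and listed at 0 in every WT library, so it passed the filter only through *mads1* and no fold is given. Its identifier on chromosome 3H was paired by the study with an older identifier on 6H, 1 of 34 such pairs in its list.

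Genes for proton pumps and for proteins that remodel the cell wall were taken from the same list by their annotation as expansin, H(+)-ATPase, xyloglucan endotransglucosylase or pectinesterase. Of 7, the filter kept 6, of which 2 passed it only through WT and so had to differ. All 6 were lower past the threshold, beside 83.2% of the 541 tested genes of the whole list and 14.5% of all genes tested. Their log2 differences ran from -3.66 to -1.12, with a median of -1.54. The study chose these genes on this contrast as well. They are called cell elongation genes here by their annotation only, and cell extension was not measured in these libraries. In sections of *mads1* awns, the study found a longitudinal cell length like that of WT and fewer cells. Expansin B2, a protein that loosens cell walls, was at 8.87, 22.52 and 8.07 FPKM in *mads1*, against 276.41, 123.67 and 121.61 FPKM in WT (log2 difference -3.66, SE 0.42). Expansin A10 was at 3.27, 8.28 and 3.93 FPKM in *mads1*, against 49.21, 21.57 and 17.91 FPKM in WT (log2 difference -2.26, SE 0.40). Both expansins had WT replicate 1 and *mads1* replicate 2 as the highest library of their group, as did the *SAUR*-like gene, *SAUR36* and *SAUR54*. This was not particular to them, since *IAA12*, the dormancy/auxin associated gene and H(+)-ATPase 2 had it too. WT replicate 1 was the highest WT library for 74.8% of all genes lower in *mads1*.

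A gene for xyloglucan endotransglucosylase/hydrolase 25, an enzyme that cuts and rejoins wall xyloglucan, was at 0.30, 0.19 and 0.11 FPKM in *mads1* and at 2.97, 3.43 and 1.65 FPKM in WT (log2 difference -1.59). The proton pump gene H(+)-ATPase 2 kept more of its level. It was at 66.12, 77.12 and 62.95 FPKM in *mads1*, against 196.52, 145.06 and 151.43 FPKM in WT, so that *mads1* stood at 41.8% of WT (log2 difference -1.24). The proton pump gene was named after its values were seen, for its place in the pathway.

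**Figure D3:**
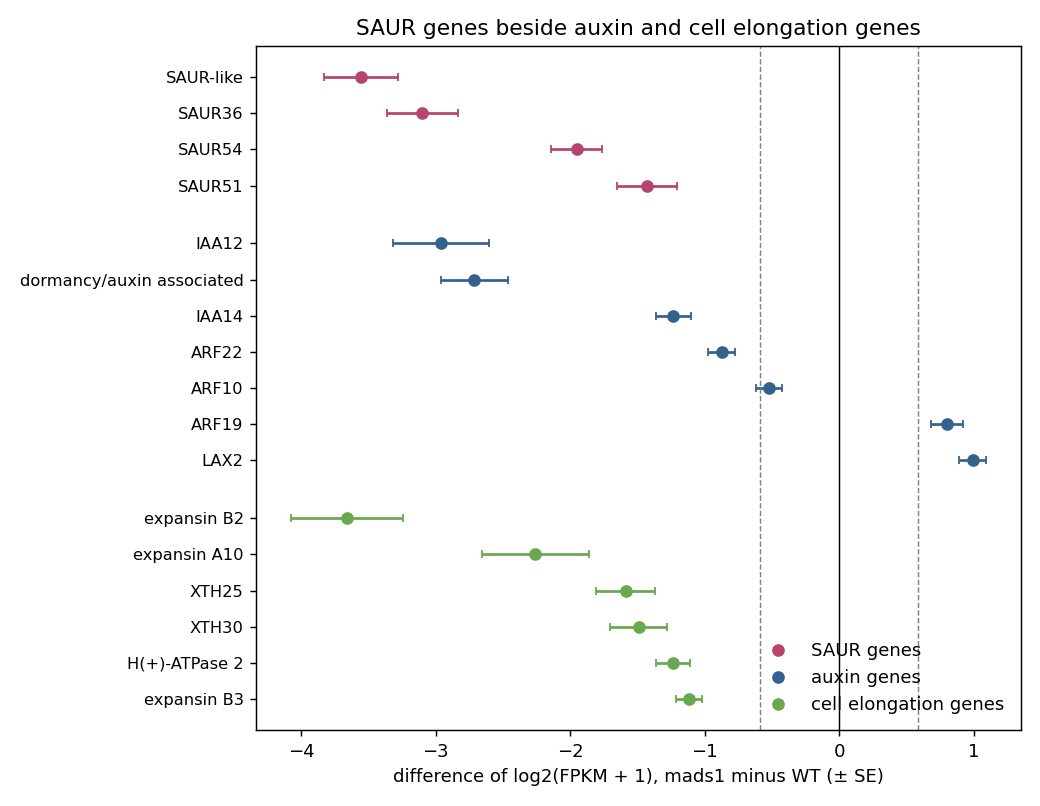
Difference of log2(FPKM + 1), *mads1* minus WT, with its standard error, for the *SAUR* genes, the auxin genes named in the text and the cell elongation genes of the study's list (genes listed at 0 in a whole group are left out, and dashed lines mark a fold change of 1.5). *SAUR* genes lie between -3.56 and -1.43 and tested cell elongation genes between -3.66 and -1.12, all below 0, while *ARF19* (0.81) and *LAX2* (0.99) lie above 0.

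The profiles of the 4 *SAUR* genes were compared by the Euclidean distance between their log2(FPKM + 1) values over the 6 libraries, each centred on the mean of the gene. Since most genes of the study's list differed by genotype, a short distance says mostly that the differences are of like size on this scale. On it, a difference depends on the level of a gene too, so distance does not measure likeness in the share of WT. *SAUR54* and *SAUR36*, at 9.02% and 10.1% of WT, were 1.54 apart. *SAUR36* and the *SAUR*-like gene were nearest to each other (0.704), followed by *SAUR51* and *SAUR54* (0.784), and the *SAUR*-like gene and *SAUR51* were the farthest apart (2.76). The 3 nearest were then found for each among 479 annotated genes of the study's list, itself chosen on this contrast, and not among all genes. For *SAUR36*, a gene of the pectin acetylesterase family was nearest, at a distance of 0.0571 beside a median of 2.56 over the 479. It held 0.81, 1.61 and 0.46 FPKM in *mads1*, against 22.19, 12.46 and 13.30 FPKM in WT, the same order of libraries within *mads1* and within WT as *SAUR36*. An S-adenosyl-L-methionine-dependent methyltransferase gene (0.194) and myb domain protein 86 (0.195) came next.

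For the *SAUR*-like gene, the nearest were glycosyl hydrolase 9B8 (0.453), Walls Are Thin 1 (0.491) and a nucleotide/sugar transporter gene (0.509), beside a median of 3.10. Glycosyl hydrolase 9B8 was at 0.42, 0.79 and 0.22 FPKM in *mads1* and at 27.38, 13.64 and 14.48 FPKM in WT. For *SAUR54*, they were a KNOTTED-like homeobox gene (0.271), a GDSL-like lipase gene (0.348) and an aspartyl protease gene (0.356), beside a median of 1.37. The KNOTTED-like gene, of a family of homeobox transcription factors, was at 0.18, 0.33 and 0 FPKM in *mads1* and at 5.47, 4.04 and 3.05 FPKM in WT. For *SAUR51*, TRICHOME BIREFRINGENCE-LIKE 37 (0.338), a papain family cysteine protease gene (0.349) and a glycosyl hydrolase family 32 gene (0.363) were nearest, beside a median of 1.08. The distances are descriptions over 6 shared libraries.

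Most genes next to the *SAUR* genes had not been chosen by the contrast and could be tested. Identifiers of the Morex version 3 annotation are numbered along each chromosome, and the 10 listed identifiers before and after each *SAUR* gene were taken, 64 genes in all without the *SAUR* genes, of which 40 passed the filter. The study's list held 2 of the 64, of which 1 passed the filter. *SAUR51* and *SAUR54* stand 5 listed identifiers apart on 5H, so their windows overlap. Of the 40, 8 (20%) were lower and 3 were higher in *mads1* past the threshold (limma, adjusted p under 0.05), beside 14.5% lower and 6.6% higher over all genes tested. Of the 8 lower neighbours, 3 had no *mads1* library at 1 FPKM and passed the filter only through WT, so that they had to differ. Without genes that passed through 1 genotype only, 5 of 37 neighbours (13.5%) were lower and 3 higher, beside 12.5% lower and 5.40% higher over all genes. Without the tested neighbour on the study's list as well, 4 of 36 (11.1%) were lower. The share lower among the neighbours was near the background. Their median log2 difference was 0.17, beside 0.05 over all genes. Without *mads1* replicate 1, 5 neighbours were lower and 2 higher past the threshold.

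The *SAUR*-like gene stood between neighbours that did not pass the threshold. The identifier just before it was at 42.8 ± 3.97 FPKM in *mads1* and 39.6 ± 2.46 FPKM in WT (SD, n = 3 each; log2 difference 0.11, limma adjusted p = 0.341), and the one just after it had a log2 difference of -0.21 (limma adjusted p = 0.123). At 2 places before it, HORVU.MOREX.r3.5HG0430460 was at 5.02, 3.48 and 4.88 FPKM in *mads1* and at 19.52, 10.75 and 13.26 FPKM in WT (log2 difference -1.48, SE 0.21, limma adjusted p = 0.000921). At 9 places before it, HORVU.MOREX.r3.5HG0430240 was listed at 0 in every *mads1* library and at 2.00, 2.82 and 2.31 FPKM in WT. It passed the filter only through WT, and its values are a description. Of the 13 neighbours past the filter here, 3 were lower and 1 was higher, beside 14.5% lower and 6.6% higher over all genes tested. The third lower gene, 5 places before the *SAUR*-like gene, held 0.12, 0.23 and 0.79 FPKM in *mads1*. It too passed the filter only through WT and is not read as a test. The higher gene, 10 places after the *SAUR*-like gene, was at 70.96, 63.47 and 86.85 FPKM in *mads1*. In WT it was at 42.06, 44.31 and 45.21 FPKM (log2 difference 0.73, limma adjusted p = 0.0013).

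The identifier just after *SAUR54*, annotated as a carbohydrate-binding protein and itself on the study's list, was at 1.00, 1.31 and 0.64 FPKM in *mads1* and at 16.17, 7.24 and 9.77 FPKM in WT, and its difference of -2.55 (SE 0.26) is a description. The identifier just before *SAUR54* was at 0.20, 0.76 and 0.87 FPKM in *mads1* and at 1.37, 1.43 and 2.02 FPKM in WT, and it too passed the filter only through WT and is described without a test. Between *SAUR51* and *SAUR54*, the remaining 3 identifiers had log2 differences of 0.01, -0.07 and 0.24 and did not pass the threshold. Of 15 neighbours past the filter around *SAUR54*, 3 were lower, and of 14 around *SAUR51*, 2 were lower, with none higher in either window. Over all genes tested, 14.5% were lower and 6.6% higher. Both windows hold the identifiers just before and just after *SAUR54*, which are the only lower ones around *SAUR51* and are described without a test. The other lower gene, 10 places after *SAUR54*, was at 39.69, 34.91 and 28.59 FPKM in *mads1*. In WT it was at 78.30, 82.13 and 75.67 FPKM (log2 difference -1.18, SE 0.11, limma adjusted p = 0.000117), a call lost in 0 of 15 alternatives.

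Around *SAUR36*, 9 neighbours could be tested, and both identifiers beside it were under the filter. Of the 9, 2 were lower and 2 higher, beside 14.5% lower and 6.6% higher over all genes tested. Of the lower ones, the gene 8 places before *SAUR36* was at 1.99, 2.61 and 0.91 FPKM in *mads1* and 6.84, 5.28 and 5.47 FPKM in WT (log2 difference -1.32, SE 0.23, limma adjusted p = 0.00272), a call lost in 0 of 15 alternatives. The gene 7 places before it was at 53.69, 65.09 and 57.71 FPKM in *mads1* and 97.70, 89.46 and 90.26 FPKM in WT (log2 difference -0.65, SE 0.09, limma adjusted p = 0.000592), a call lost in 2 of 15, with equal library totals and without *mads1* replicate 1. The higher ones were HORVU.MOREX.r3.7HG0687980 at 2.93, 1.39 and 2.86 FPKM in *mads1* and 0.52, 1.35 and 1.05 FPKM in WT (log2 difference 0.77, SE 0.25, limma adjusted p = 0.0364), and HORVU.MOREX.r3.7HG0687640 at 8.94, 6.25 and 8.20 FPKM in *mads1* and 3.80, 4.39 and 4.56 FPKM in WT (log2 difference 0.73, SE 0.15, limma adjusted p = 0.00471). The call of HORVU.MOREX.r3.7HG0687980 was lost in 7 of 15 alternatives, among them without *mads1* replicate 1 or 3 and without WT replicate 1 or 3.

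**Figure D4:**
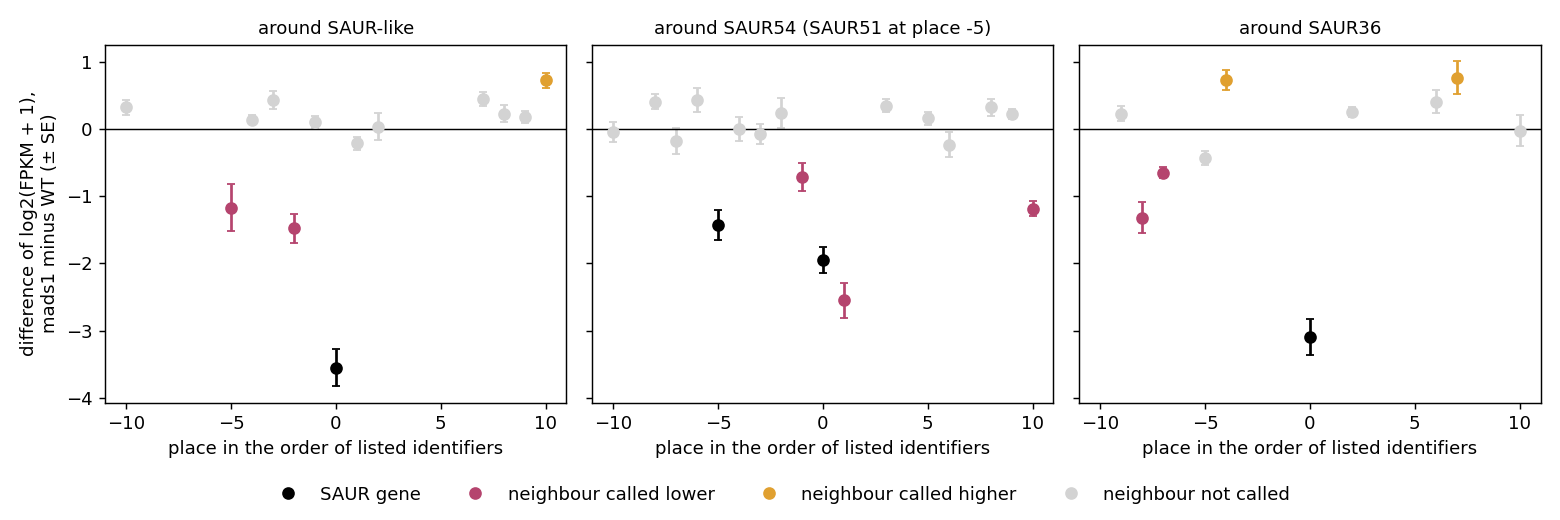
Difference of log2(FPKM + 1), *mads1* minus WT, with its standard error, for the tested genes within 10 listed identifiers of the *SAUR*-like gene, *SAUR54* (with *SAUR51* 5 places before it) and *SAUR36* (genes listed at 0 in a whole group are left out). The *SAUR* genes at place 0 lie at -3.56, -1.95 and -3.10, and most neighbours lie near 0.

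The names *SAUR36*, *SAUR51* and *SAUR54* were given by the study to older identifiers, which it paired with those of the deposited table. The pair of the *SAUR*-like gene held place 7 in both orders among the 100 pairs on 5H, and that of *SAUR36* place 47 in both among the 82 on 7H. *SAUR51* and *SAUR54* held places 8 and 9 by the older identifiers and places 54 and 55 by the newer ones. Their identity in the deposited table thus rests on the study's pairing, which was not tested. The study annotates *SAUR51* and *SAUR54* as members of the SAUR-like auxin-responsive protein family. It lists no annotation for *SAUR36* and the *SAUR*-like gene, so these are *SAUR* genes by the given name only.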

How the data were processed

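The authors sequenced RNA of 3 *mads1* and 3 WT samples, trimmed the reads, mapped them to the barley genome and deposited FPKM per gene. The submitters' processing notes name Trimmomatic and RSEM 1.3.3. The aligner and the genome build are not given in the sources used here, and the identifiers are those of Morex version 3. The totals are close to a fixed sum per library, so the values may be scaled to one. The deposited FPKM hold no counts, so the depth is unknown, no interval or smallest detectable level was computed, and the authors' DESeq2 test was not repeated.

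Genes at 1 FPKM or more in 3 or more libraries were kept, and their log2(FPKM + 1) was fitted with limma 3.58.1 in R 4.3.3 (lmFit, eBayes with a trend), with Benjamini-Hochberg adjustment of p across the genes kept. Changed genes had an adjusted p under 0.05 together with a 1.5-fold change or more. The procedure was tried on simulated data in which only genes of higher level were changed and spreads were assigned without regard to level. It therefore says nothing on the recovery of changes in genes of low level, such as *SAUR51* and *SAUR54*. With 3 libraries a group, an exact two-sided permutation test of a single gene cannot go below p = 0.1, and none is given. At most 2.18% of all listed genes had an identical value above 0 in any 2 libraries, and each library was counted as a separate replicate.

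The genes and lists were chosen with earlier results of these data known. Named are the *SAUR* genes, the auxin genes except 1 that is counted but not reported here, the 3 cell elongation genes with the largest difference, changed neighbours (at most 2 without annotation in each direction), the 3 genes nearest to each *SAUR* gene in profile, and 4 floral genes as a check of the tissue. Names, annotation and pairs of identifiers are the study's. A test of further *SAUR* family members, promoter motifs and protein sequences are not analysed here. The alternatives were other pseudocounts (0.1 and 0.5), other filters (none, and 5 FPKM), other scalings (equal totals, median-of-ratios size factors, quantiles), no trend, a block for the replicate number, no limit on fold change, and leaving out each library.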

Additional observations from a re-analysis of the deposited data

How the results depend on the processing

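All 4 *SAUR* genes stayed lower in *mads1* in every alternative that gave a value. A smaller pseudocount enlarged their log2 differences, which follows from their low levels in *mads1*. With 0.1 they were -4.72 (*SAUR*-like), -3.22 (*SAUR54*) and -1.95 (*SAUR51*), and with 0.5 they were -4.06 (*SAUR*-like) and -2.46 (*SAUR54*). With each library left out in turn, the difference ranged from -3.83 to -3.30 for the *SAUR*-like gene, from -3.33 to -2.84 for *SAUR36*, from -2.12 to -1.83 for *SAUR54* and from -1.65 to -1.19 for *SAUR51*, and the *mads1* share of the summed level from 7.70% to 11.5%. The filter at 5 FPKM left *SAUR51* and *SAUR54* without a value. It also left 769 genes higher in *mads1* and 5 lower neighbours, since fewer genes were tested. By the adjusted p alone, 4011 of the 17996 genes were lower and 3768 higher, and of the 40 tested neighbours 9 were lower and 11 higher. With a library left out, the genes lower in *mads1* numbered 2380 to 2698 and those higher 1022 to 1460, and the neighbours 5 to 8 lower and 2 to 4 higher; the fewest lower neighbours came without *mads1* replicate 1, and the cause was not tested. The auxin genes (5 lower, 3 higher) and the cell elongation genes (6 lower) gave the same counts with each library left out. Rescaling to the same total and quantile normalization each moved the median difference of all genes to 0.11, beside 0.05 as deposited.

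The deviations of same-numbered libraries from their group means correlated at -0.07, -0.28 and 0.20 for replicates 1, 2 and 3. No pairing by replicate number was seen, but with 3 libraries a group these values cannot exclude one. With the number as a replicate block, 2610 genes were lower and 1171 higher, 8 neighbours were lower and 2 higher, and 58 of the 59 calls among *SAUR* genes, listed genes and neighbours were the same.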
